A study of Mus musculus with 6 samples.

Results

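Prostaglandins and leukotrienes are local lipid signals made from arachidonic acid. The genes described here are 10 members of that route: the phospholipase Pla2g4a, the cyclooxygenases Ptgs1 and Ptgs2, the terminal synthases Ptges, Ptges2, Ptges3 and Ptgds, the inactivating enzyme Hpgd, the lipoxygenase Alox12b and the leukotriene cofactor Alox5ap. They were chosen by symbol, and all 10 were found among the 36079 genes of the expression table. Epilepsy had been induced in the mice with kainic acid, an agonist of glutamate receptors, and they then ate either a ketogenic diet, which is high in fat and low in carbohydrate, or chow for 3 weeks. RNA of the temporal lobe was sequenced from 3 mice on the ketogenic diet and 3 on chow, 1 library each. Every mouse in both groups had received kainic acid, so no group without seizures was compared. The sources used here give no strain, sex, age or seizure score, and the sample labels name the tissue only as brain. The labels number the mice of each diet and say no more of how they were kept or sampled, so p-values measure only the spread between these samples.

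As background, cytosolic phospholipase A2 releases arachidonic acid from membranes, and the cyclooxygenases turn it into prostaglandin H2. Ptgs1 is present constitutively, in the brain mostly in microglia, while Ptgs2 is an immediate early gene that synaptic activity and seizures induce in forebrain excitatory neurons. Terminal synthases then make prostaglandin E2 or D2, receptors on nearby cells read them, and dehydrogenases and reductases clear them. Lipoxygenases take the other branch towards leukotrienes and hydroxylated fatty acids, some of which, like prostaglandin D2 derivatives, can bind the nuclear receptor PPARγ named in the title of the series.

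Expression was given as FPKM, a unit scaled for gene length and depth, so levels of different genes can be compared per length. The total the authors divided by is not stated in the sources used here. Recovered reads, the smallest whole numbers that fit the FPKM steps, can be too low by a factor that all libraries of a gene share, so they are not compared between genes. They summed to between 37440733 and 52546325 per library. Chow replicate 1 stood apart on the first principal component, at 55.1, against -34.2 to 12.7 in the other libraries. It had the highest level of thalamic markers, at 2.43 log2 units above the 6-library mean, and the lowest of cortical and hippocampal excitatory neuron markers, at -1.57. The choroid plexus gene Ttr measured 2.13, 1.69 and 1074 FPKM in ketogenic replicates 1, 2 and 3 and 835, 3.14 and 1883 FPKM in chow replicates 1, 2 and 3. Markers of neighbouring tissue thus differed between libraries of the same diet. They also differed in mean log2 level between diets. All 10 markers of thalamus, of choroid plexus, of oligodendrocytes and of endothelium were lower on the ketogenic diet. Of excitatory neuron and of striatal markers, 9 of each list were higher and 1 lower. Microglial markers split 7 higher and 3 lower, astrocyte markers 3 and 7, and meningeal markers 5 and 5. Diet and tissue makeup thus cannot be told apart in the comparison. Markers of cortical and hippocampal excitatory neurons, all 10 above the filter described below, were present in every library. Astrocyte markers summed to 528 to 593 FPKM in ketogenic libraries and 536 to 663 FPKM in chow libraries, and endothelial markers to 63.6 to 72.8 FPKM in ketogenic libraries and 70.5 to 93.6 FPKM in chow libraries. Endothelial median deviations from the 6-library mean, in log2 units, were -0.13, -0.09 and -0.18 in ketogenic replicates 1, 2 and 3. In chow replicates 1, 2 and 3 they were 0.39, 0.01 and 0.03, without overlap between diets, while those of astrocyte markers overlapped. In bulk tissue, fewer cells of a type and less RNA per cell cannot be told apart.

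The 10 members covered a wide range of levels. Ptgds led with a mean of 328 FPKM over the 6 libraries, followed by Ptges3 at 36.5 FPKM. Ptgs2, Ptges2 and Hpgd lay close together at 4.91, 4.54 and 4.41 FPKM, and Ptgs1 and Alox12b at 2.44 and 2.40 FPKM, and within each of these sets the library ranges overlapped. Alox5ap, Ptges and Pla2g4a were lowest, at 1.00, 0.868 and 0.587 FPKM. Ptgds alone made up 83.6%, 85.6% and 89.2% of the summed FPKM of the members in ketogenic replicates 1, 2 and 3, against 80.8%, 83.6% and 84.8% in chow replicates 1, 2 and 3. Spread between libraries was unequal too. Alox12b differed 10.7 times between its highest and lowest library and Ptgs2 3.15 times, while Ptges2 differed only 1.20 times.

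No member passed the test between diets. With limma, a linear model fitted to log2(FPKM + 0.5) of the 16009 genes averaging 0.5 FPKM or more, no gene in the table reached an adjusted p under 0.05 (0.00% of those tested), and 861 genes, or 5.38%, had an unadjusted p under 0.05. In the ketogenic libraries, 329 of these (2.06% of genes tested) were higher and 532 (3.32%) lower. The split was 403 higher and 410 lower after quantile normalization, and 490 and 379 with each library centred on its median. With voom on the recovered reads, again no gene was called and 856 had an unadjusted p under 0.05. All 10 members were above that filter, 5 with a positive and 5 with a negative log2 change and a median of -0.01, against -0.04 for all genes tested. Alox12b was the member with an unadjusted p under 0.05. The groups did not overlap in Alox12b and Ptges2, both higher on the ketogenic diet, while non-overlapping groups occurred in 12.4% of all genes tested and in 4.90% in the higher direction. A change of a low gene is understated on this scale.

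**Figure D1:**
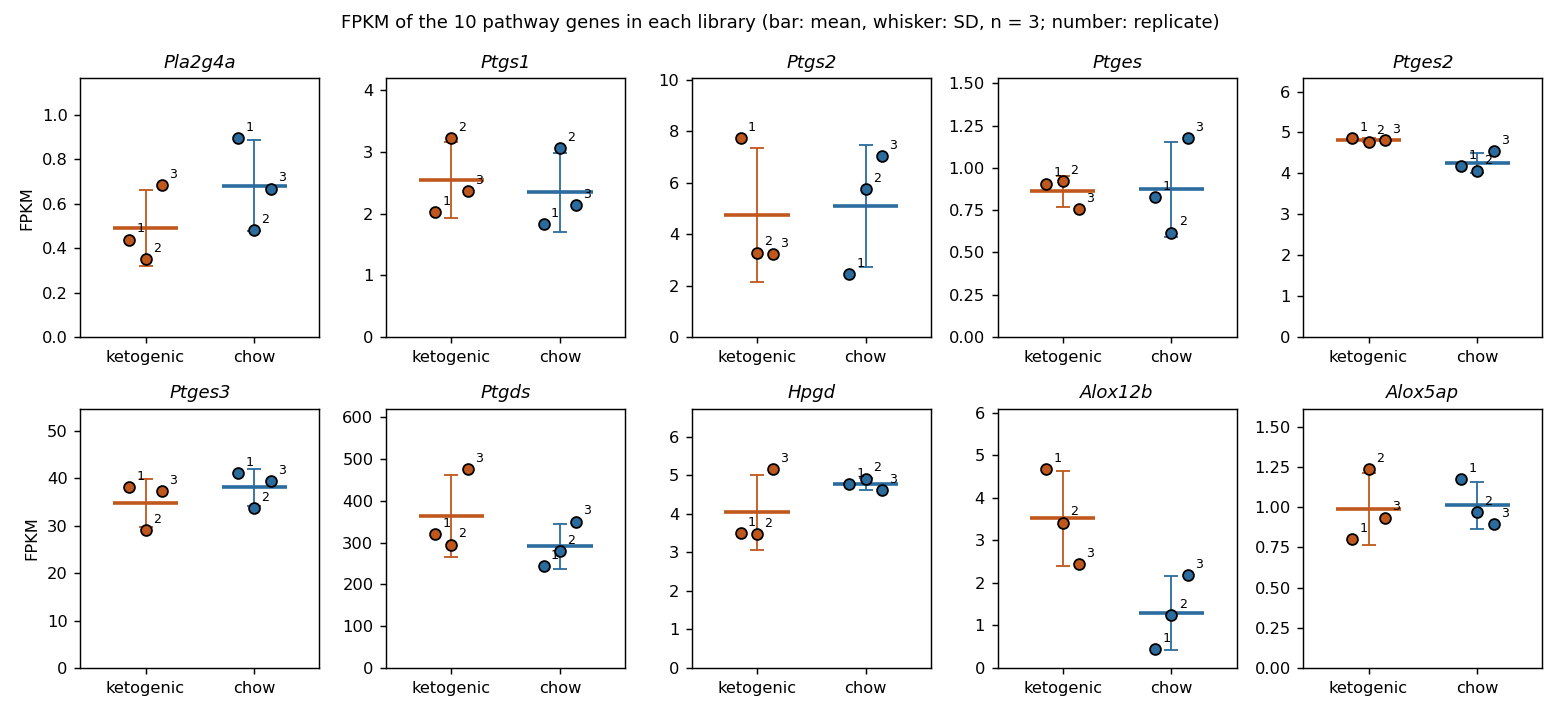
FPKM (y axis, from 0) of each of the 10 members in the 3 ketogenic libraries (left, orange) and the 3 chow libraries (right, blue), with bars for the mean, whiskers for the SD and numbers for the replicate. All 3 ketogenic points lie above all 3 chow points in Ptges2 and Alox12b, and the groups overlap in the other 8 genes.

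Promoter sequences are shown for 4 members: the induced and the constitutive cyclooxygenase, and the 2 members whose groups did not overlap. Whether these sequences bear on the expression of the genes was not tested. The sequences are RefSeq's, of build GRCm38.p6, and run 5′ to 3′ on the gene's strand from 250 bases before to 30 bases after the annotated start. The expression table was made on GRCm39, and these coordinates were not used with it. Capitals mark the searched motifs.
Ptgs2, chr1:150099781-150100060, plus strand: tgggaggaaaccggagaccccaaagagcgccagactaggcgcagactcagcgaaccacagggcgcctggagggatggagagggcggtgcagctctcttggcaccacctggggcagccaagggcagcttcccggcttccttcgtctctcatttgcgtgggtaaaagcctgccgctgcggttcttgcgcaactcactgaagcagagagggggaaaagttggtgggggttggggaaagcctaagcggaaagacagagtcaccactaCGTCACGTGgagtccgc
Ptgs1, chr2:36230176-36230455, plus strand: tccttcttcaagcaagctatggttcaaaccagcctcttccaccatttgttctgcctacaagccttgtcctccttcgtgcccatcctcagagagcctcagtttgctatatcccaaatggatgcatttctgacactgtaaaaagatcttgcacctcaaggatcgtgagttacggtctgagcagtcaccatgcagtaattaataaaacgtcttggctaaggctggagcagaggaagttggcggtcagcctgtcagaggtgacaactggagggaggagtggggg
Ptges2, chr2:32395640-32395919, plus strand: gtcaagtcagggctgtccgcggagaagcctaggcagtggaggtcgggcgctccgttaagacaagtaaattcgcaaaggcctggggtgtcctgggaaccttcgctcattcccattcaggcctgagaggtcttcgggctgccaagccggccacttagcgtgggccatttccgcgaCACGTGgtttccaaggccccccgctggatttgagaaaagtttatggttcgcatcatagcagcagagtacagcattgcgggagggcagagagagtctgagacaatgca
Alox12b, chr11:69156822-69157101, plus strand: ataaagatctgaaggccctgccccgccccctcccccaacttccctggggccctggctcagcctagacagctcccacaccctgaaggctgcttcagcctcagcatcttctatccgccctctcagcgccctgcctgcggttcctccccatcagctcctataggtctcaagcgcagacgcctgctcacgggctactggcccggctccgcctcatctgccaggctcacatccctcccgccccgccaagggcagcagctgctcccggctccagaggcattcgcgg

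The windows were searched on both strands for the cAMP response element TGACGTCA and for its core TGACG. The E-box CACGTG was searched as well, as was the TATA box TATAAA. Longer patterns were the PPAR element, a repeat of AGGTCA with 1 base between, and the glucocorticoid element. The seizure-responsive gene Ptgs2 held the core on the reverse strand from position 14 after the start and an E-box from position 17, and the matches overlap. Of all 32817 promoter windows searched, 19.9% held the core and 6.79% the E-box. Ptges2 held an E-box from position -77. No searched letters were found in the windows of Ptgs1 and Alox12b. Among the 9 members with an entry, the core was also in that of Ptges3, and TATAAA, held by 13.1% of all windows, in those of Hpgd and Pla2g4a. The full cAMP, PPAR and glucocorticoid elements were in none of the 9, and 1.74%, 0.0366% and 0.00914% of all windows held them. Alox5ap had no entry.

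Release of arachidonic acid was represented by Pla2g4a (ENSMUSG00000056220), the calcium-dependent cytosolic phospholipase A2. It measured 0.439, 0.352 and 0.684 FPKM in ketogenic replicates 1, 2 and 3, against 0.896, 0.483 and 0.669 FPKM in chow replicates 1, 2 and 3. The highest and the lowest library came from different diets, but ketogenic replicate 3 lay among the chow libraries. Its mean was 0.491 ± 0.172 FPKM in ketogenic libraries and 0.683 ± 0.207 FPKM in chow libraries (SD, n = 3 each). That is a log2 change of -0.25 ± 0.21 (SE; limma, adjusted p = 0.770), which was 0.03 in a fit with the thalamic score as covariate and -0.49 with voom. Without chow replicate 1 it was -0.13 and without ketogenic replicate 2 -0.15, while without chow replicate 2 it was -0.38 and without ketogenic replicate 3 -0.39. Pla2g4a had 101 to 194 recovered reads in the ketogenic libraries and 159 to 319 in the chow libraries.

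Of 20 other phospholipases and related lipases on the list, 8 were above the filter, 4 with a positive and 4 with a negative change and a median of 0.04. Pla2g4e, a calcium-dependent N-acyltransferase of the same family that makes endocannabinoid precursors, measured 1.53, 1.47 and 1.26 FPKM on the ketogenic diet, against 0.642, 0.798 and 1.19 FPKM on chow. Its groups did not overlap, as in the higher direction for 4.90% of all genes tested, and its log2 change was 0.50 ± 0.19 (adjusted p = 0.752). Pla2g4e was named for its small unadjusted p, which favours such a separation. Chow replicate 1 was its lowest library. Secreted Pla2g5 had a log2 change of -0.36 ± 0.33 and calcium-independent Pla2g6 one of 0.08 ± 0.11. Mgll, the lipase that frees arachidonic acid from an endocannabinoid and a main source of it for prostaglandins in mouse brain, measured 32.0, 35.2 and 15.4 FPKM on the ketogenic diet, against 18.5, 24.4 and 30.2 FPKM on chow. It exceeded the level of Pla2g4a in every library.

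The cyclooxygenases differed in how they varied. Ptgs2 (ENSMUSG00000032487), also called COX-2, measured 7.73, 3.28 and 3.21 FPKM in ketogenic replicates 1, 2 and 3, against 2.45, 5.75 and 7.04 FPKM in chow replicates 1, 2 and 3. Each diet held libraries with high and with low Ptgs2. Means were 4.74 ± 2.59 FPKM in ketogenic libraries and 5.08 ± 2.37 FPKM in chow libraries (SD, n = 3 each). The log2 change of -0.09 had a 95% interval from -1.17 to 0.99 (limma, adjusted p = 0.960), a range that spans 0 widely. It was positive without chow replicate 2 or 3 and without ketogenic replicate 2 or 3, between 0.05 and 0.18.

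Ptgs2 was high in the libraries where other activity-regulated genes were high. The median deviation of 14 such genes was 0.74, -0.41 and -0.07 in ketogenic replicates 1, 2 and 3, against -1.15, 0.25 and 0.70 in chow replicates 1, 2 and 3. The highest 3 libraries of the list were also the highest 3 for Ptgs2, and chow replicate 1 was lowest for both. Egr1, an immediate early transcription factor, measured 112, 45.9 and 35.3 FPKM on the ketogenic diet, against 14.5, 59.1 and 108 FPKM on chow. Of the 14 genes, 11 had their highest level in ketogenic replicate 1 or chow replicate 3, and 9 their lowest in chow replicate 1. With the score of this list as a covariate, the log2 change of Ptgs2 was -0.21. Excitatory neuron markers were lowest in chow replicate 1 as well, and with their score as a covariate the change was -0.65. With the thalamic score it was -0.80. Beyond these fits, the part of neuronal activity and of tissue makeup in the level of Ptgs2 was not tested.

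By mean absolute difference of centred log2 values over the 6 libraries, the tested genes nearest to Ptgs2 were Mir466i, Dusp6 and Pantr1, at 0.158, 0.178 and 0.181. Dusp6, a phosphatase induced by ERK signalling, measured 32.9, 15.3 and 14.3 FPKM on the ketogenic diet, against 15.6, 20.0 and 35.5 FPKM on chow. This is a description over 6 libraries, with 11943 genes compared.

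Ptgs1 (ENSMUSG00000047250), the constitutive COX-1, measured 2.02, 3.23 and 2.37 FPKM in ketogenic replicates 1, 2 and 3, against 1.83, 3.07 and 2.14 FPKM in chow replicates 1, 2 and 3. Replicate 2 was the highest library on each diet. The log2 change was 0.10 ± 0.22 (SE; limma, adjusted p = 0.900). It was -0.19 with thalamic markers as a covariate score, -0.01 with the choroid plexus score, -0.02 with the excitatory neuron score, and -0.03 and -0.06 without chow replicate 1 and ketogenic replicate 2. Microglia markers, all 10 of which were measured, had their highest median deviations in the same libraries, 0.17 in ketogenic replicate 2 and 0.35 in chow replicate 2. Their summed level ran from 129 to 154 FPKM in ketogenic libraries and from 123 to 179 FPKM in chow libraries. Striatal markers were also highest in these libraries, at 2.07 in ketogenic replicate 2 and 2.44 in chow replicate 2. They summed to 56.9 to 839 FPKM in ketogenic libraries and 50.5 to 1062 FPKM in chow libraries. The part of striatal tissue in the level of Ptgs1 was not tested, and with the microglial score as a covariate its change was 0.01. Gm43621 overlaps Ptgs1 on the opposite strand in GENCODE M21, and the sources used here do not say whether counting used strand, so reads of the overlap cannot be told apart.

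Set against each other within a library, Ptgs2 was 3.82, 1.02 and 1.35 times the FPKM of Ptgs1 in ketogenic replicates 1, 2 and 3, and 1.34, 1.87 and 3.28 times in chow replicates 1, 2 and 3. Inducible cyclooxygenase thus exceeded the constitutive one per length in all 6 libraries. The ratio overlapped fully between diets.

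**Figure D2:**
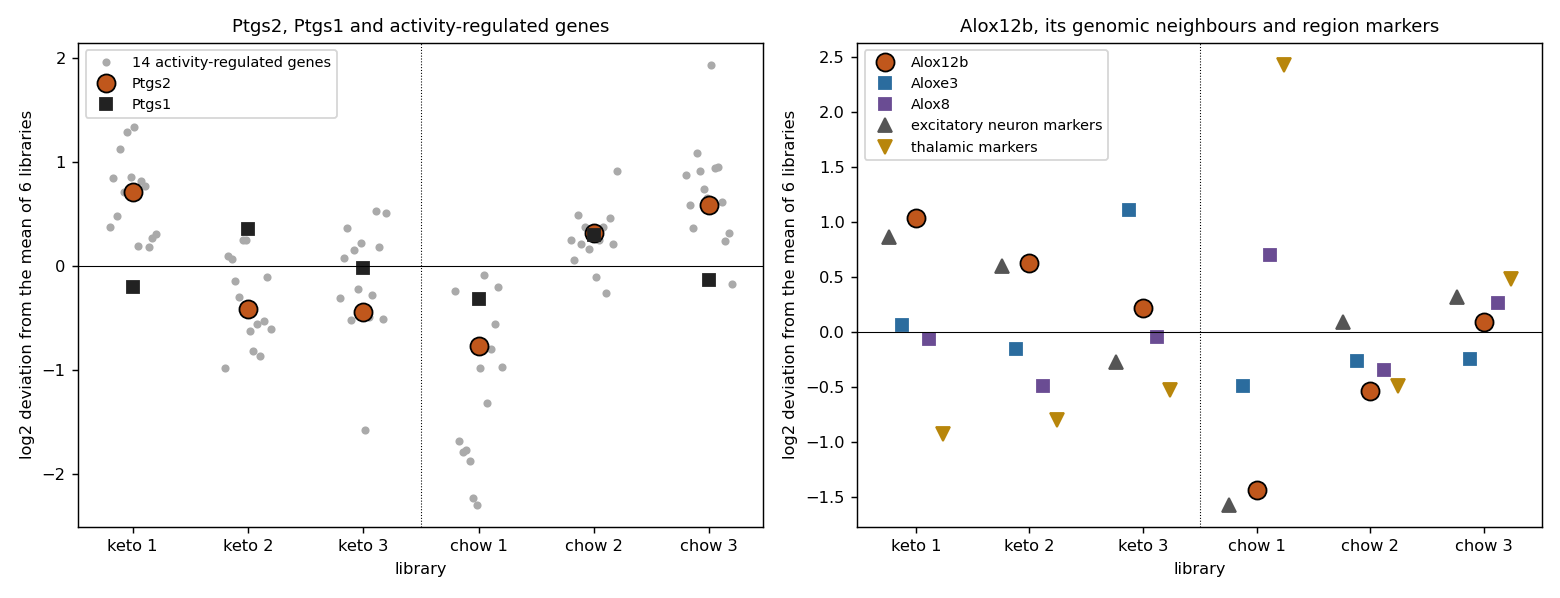
Deviation from the mean of the 6 libraries, in log2(FPKM + 0.5) units (y axis), by library (x axis, ketogenic left of the dotted line). Left: Ptgs2, Ptgs1 and 14 activity-regulated genes, where ketogenic replicate 1 and chow replicate 3 are high for Ptgs2 and chow replicate 1 is lowest at -0.77. Right: Alox12b, its neighbours Aloxe3 and Alox8, and the median of excitatory neuron and of thalamic markers, where Alox12b runs from 1.03 in ketogenic replicate 1 to -1.43 in chow replicate 1.

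Prostaglandin E2 can be made by any of 3 synthases, all of them members. Ptges (ENSMUSG00000050737), the inducible microsomal enzyme that couples with Ptgs2, measured 0.908, 0.923 and 0.756 FPKM in ketogenic replicates 1, 2 and 3, against 0.827, 0.617 and 1.18 FPKM in chow replicates 1, 2 and 3. The ketogenic libraries lay inside the chow range. A processed pseudogene, Gm13400, overlaps Ptges on the same strand and could share its reads. Its log2 change of 0.01 ± 0.19 (SE; limma, adjusted p = 0.994) had a 95% interval from -0.46 to 0.47.

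Ptges2 (ENSMUSG00000026820), a membrane-associated form, measured 4.86, 4.78 and 4.82 FPKM in ketogenic replicates 1, 2 and 3, against 4.19, 4.06 and 4.54 FPKM in chow replicates 1, 2 and 3. All ketogenic libraries lay above all chow libraries, and they lay very close together. Means were 4.82 ± 0.0416 FPKM in ketogenic libraries and 4.26 ± 0.245 FPKM in chow libraries (SD, n = 3 each). The log2 change of 0.16 ± 0.10 (SE) did not pass (limma, adjusted p = 0.752), and its 95% interval ran from -0.07 to 0.39. It kept its sign in all 21 alternatives, between 0.13 and 0.22.

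Ptges3 (ENSMUSG00000071072), a cytosolic form better known as the HSP90 co-chaperone p23, measured 38.2, 29.1 and 37.3 FPKM in ketogenic replicates 1, 2 and 3, against 41.1, 33.8 and 39.5 FPKM in chow replicates 1, 2 and 3. Replicate 2 was the lowest library on each diet. Its log2 change was -0.13 ± 0.14 (SE; limma, adjusted p = 0.800), and 0.004 once thalamic markers entered as a covariate. It was -0.01 without ketogenic replicate 2 and -0.08 without chow replicate 1, but -0.20 without ketogenic replicate 1 and -0.22 without chow replicate 2. Per length it was 7.86, 6.09 and 7.74 times as abundant as Ptges2 in ketogenic replicates 1, 2 and 3, and 9.83, 8.31 and 8.70 times in chow replicates 1, 2 and 3. This ratio was lower in each ketogenic library than in each chow library, and was not tested. Its denominator, Ptges2, was itself higher in each ketogenic library, so the ratio is not independent of that separation.

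Ptgds (ENSMUSG00000015090), the lipocalin-type prostaglandin D2 synthase of meninges, choroid plexus and oligodendrocytes, measured 321, 295 and 476 FPKM in ketogenic replicates 1, 2 and 3, against 244, 279 and 351 FPKM in chow replicates 1, 2 and 3. Ketogenic replicate 3 was highest and chow replicate 1 lowest, and the groups overlapped. Means were 364 ± 98.0 FPKM in ketogenic libraries and 291 ± 54.4 FPKM in chow libraries (SD, n = 3 each). The log2 change was 0.31 ± 0.22 (SE; limma, adjusted p = 0.756). It was 0.10 without ketogenic replicate 3 and 0.19 without chow replicate 1, and 0.46 with the choroid plexus marker score as a covariate.

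Markers of the tissues known to make Ptgds ordered the libraries partly as Ptgds did. Meningeal fibroblast markers, 10 of 12 above the filter, had median deviations of -0.15, -0.04 and 0.17 in ketogenic replicates 1, 2 and 3, against -0.38, 0.12 and 0.32 in chow replicates 1, 2 and 3. Replicate 3 of each diet was highest and chow replicate 1 lowest, as for Ptgds. Their summed level was 16.0 to 22.3 FPKM in ketogenic libraries and 13.0 to 23.2 FPKM in chow libraries. Choroid plexus markers, all 10 above the filter, summed to 4.24 to 1114 FPKM in ketogenic libraries and 8.40 to 1949 FPKM in chow libraries. In ketogenic replicate 3 and chow replicate 3 most of the sum was Ttr, at 1074 and 1883 FPKM. Median deviations of the list were -1.37, -1.54 and 1.24 in ketogenic replicates 1, 2 and 3. In chow replicates 1, 2 and 3 they were 0.98, -1.34 and 1.90. Replicate 3 of each diet was highest, as for Ptgds, but chow replicate 1 was high in these markers and lowest in Ptgds. Oligodendrocyte markers, all 10 above the filter, summed to 683 to 1574 FPKM in ketogenic libraries and 968 to 2370 FPKM in chow libraries, and were highest in chow replicate 1, where Ptgds was lowest. With the meningeal score as a covariate, the log2 change of Ptgds was 0.33. No fit used an oligodendrocyte score. Beyond the choroid plexus and meningeal fits, the part of these tissues in the level of Ptgds was not tested. Nearest to Ptgds in profile were Slit2, Tmem159 and Ifi30, at mean absolute differences of 0.0725, 0.0865 and 0.0908.

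No other prostanoid synthase passed the test. Of the 8 above the filter, 6 had a positive and 2 a negative log2 change, with a median of 0.11. Fam213b, a prostamide and prostaglandin F synthase abundant in brain, measured 22.0, 26.8 and 22.4 FPKM on the ketogenic diet, against 19.5, 20.9 and 18.3 FPKM on chow. Its groups did not overlap, and the log2 change was 0.27 ± 0.11 (SE; limma, adjusted p = 0.752). Fam213b was named for its small unadjusted p, which favours such a separation. Of all genes tested, 4.90% were higher and 7.49% lower without overlap. Hpgds, the haematopoietic prostaglandin D2 synthase of microglia, measured 1.11, 1.15 and 1.07 FPKM on the ketogenic diet, against 1.23, 1.73 and 1.25 FPKM on chow, which did not overlap either. Its log2 change was -0.23 ± 0.15 (adjusted p = 0.752), of opposite sign to that of Ptgds, and neither was called. Thromboxane synthase, Tbxas1, lay below the filter at 0.219 to 0.237 FPKM in ketogenic libraries and 0.230 to 0.331 FPKM in chow libraries.

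Receptor transcripts were low. Of 9 prostanoid receptors in the table, 8 were below the filter. Ptger3, the EP3 receptor of prostaglandin E2, was the one above it, at 0.796, 0.501 and 0.796 FPKM on the ketogenic diet, against 1.05, 0.689 and 1.29 FPKM on chow. The groups overlapped, with a log2 change of -0.32 ± 0.21 (SE; limma, adjusted p = 0.752). The other E2 receptors averaged 0.128 (Ptger1), 0.0488 (Ptger2) and 0.207 FPKM (Ptger4) on the ketogenic diet and 0.164, 0.0734 and 0.244 FPKM on chow, in the same gene order. The D2 receptor Ptgdr averaged 0.131 FPKM in ketogenic libraries and 0.195 FPKM in chow libraries, and the F receptor Ptgfr 0.133 FPKM in ketogenic and 0.156 FPKM in chow libraries. At these levels, under the filter, the receptors were not tested.

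Clearance begins with Hpgd (ENSMUSG00000031613), 15-hydroxyprostaglandin dehydrogenase, which inactivates prostaglandin E2. It measured 3.50, 3.46 and 5.17 FPKM in ketogenic replicates 1, 2 and 3, against 4.78, 4.91 and 4.61 FPKM in chow replicates 1, 2 and 3. The chow libraries lay close together, with ketogenic replicates 1 and 2 below all of them and ketogenic replicate 3 above all of them. Means were 4.04 ± 0.972 FPKM in ketogenic libraries and 4.77 ± 0.153 FPKM in chow libraries (SD, n = 3 each). The log2 change was -0.23 ± 0.16 (SE; limma, adjusted p = 0.752). Without ketogenic replicate 3 it was -0.40, with an unadjusted p of 0.0139 and an adjusted p of 0.653. It was -0.15 without ketogenic replicate 1, without ketogenic replicate 2, and with the choroid plexus score as a covariate. Choroid plexus markers were low in ketogenic replicates 1 and 2, at -1.37 and -1.54, but also in chow replicate 2, at -1.34, where Hpgd was high, and their part in the level of Hpgd was not tested beyond that fit. Gm45540 overlaps Hpgd on the same strand and could share its reads.

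The next step is the reductases that act after Hpgd. Ptgr2, prostaglandin reductase 2, which acts on 15-keto-prostaglandin E2, a PPARγ ligand, measured 2.51, 2.79 and 2.83 FPKM on the ketogenic diet, against 4.72, 3.45 and 3.56 FPKM on chow. All ketogenic libraries lay below all chow libraries, which was the case for 7.49% of all genes tested and which the choice of Ptgr2 by its small unadjusted p favours. Its log2 change of -0.45 ± 0.14 (SE) did not pass (limma, adjusted p = 0.752; unadjusted p = 0.0189). The exporter Abcc4 had a log2 change of -0.15 ± 0.12. In all, 4 of 6 transport and breakdown genes in the table were above the filter, 3 with a negative and 1 with a positive change and a median of -0.10.

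Alox12b (ENSMUSG00000032807), the 12R-lipoxygenase that builds the lipid barrier of the epidermis, had the largest change among the members. It measured 4.67, 3.41 and 2.45 FPKM in ketogenic replicates 1, 2 and 3, against 0.436, 1.25 and 2.19 FPKM in chow replicates 1, 2 and 3. All ketogenic libraries were above all chow libraries, though ketogenic replicate 3 and chow replicate 3 lay close together. Means were 3.51 ± 1.12 FPKM in ketogenic libraries and 1.29 ± 0.877 FPKM in chow libraries (SD, n = 3 each). The recovered reads were 640, 373 and 264 in ketogenic replicates 1, 2 and 3 and 59, 156 and 214 in chow replicates 1, 2 and 3. Its log2 change was 1.25 ± 0.41 (SE), with a 95% interval from 0.27 to 2.24. It did not pass (limma, adjusted p = 0.752; unadjusted p = 0.0199), and 0.506% of all genes tested had a change at least as large in either direction.

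The Alox12b change was smaller in fits with some marker scores. Thalamic markers, all 10 above the filter, summed to 18.0 to 56.4 FPKM in ketogenic libraries and 27.8 to 279 FPKM in chow libraries. It was 0.62 after adding thalamic markers as a covariate (unadjusted p = 0.200) and 0.71 with the excitatory neuron score (unadjusted p = 0.0120). Without chow replicate 1, the library lowest in Alox12b and in excitatory neuron markers, it was 0.85. With the activity-regulated score it was 1.15 (unadjusted p = 0.00243), and with the meningeal score 1.29 (unadjusted p = 0.0129). With voom it was 1.76 (unadjusted p = 0.0169). Leaving out 1 library gave unadjusted p-values from 0.00525 without chow replicate 3, where the change was 1.61, to 0.0660 without ketogenic replicate 1, and 0.0530 without ketogenic replicate 2. None of these passed after adjustment. Slc17a7, the main glutamate transporter of cortical synaptic vesicles, measured 181, 210 and 124 FPKM on the ketogenic diet, against 62.6, 139 and 143 FPKM on chow. Excitatory neuron markers, all 10 above the filter, summed to 928 to 1669 FPKM in ketogenic libraries and 425 to 1209 FPKM in chow libraries.

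Epidermal markers were mixed in level. Of 13 keratinocyte markers, 9 were under 0.5 FPKM in all libraries, among them the basal keratin Krt5 at 0.0490 FPKM or less and the barrier protein filaggrin (Flg) at 0.00191 FPKM or less. Of the other 4, Krt10, Sbsn and Lor were at levels like that of Alox12b, while Krt1 was lower than Alox12b in every library but chow replicate 1. Krt10, a keratin of differentiating epidermis, measured 2.01, 5.40 and 2.49 FPKM in ketogenic replicates 1, 2 and 3, against 1.72, 6.0 and 2.07 FPKM in chow replicates 1, 2 and 3. Sbsn ran from 2.90 to 3.65 FPKM in ketogenic libraries and from 2.81 to 5.03 FPKM in chow libraries, and Lor, the barrier protein loricrin, from 1.53 to 1.94 FPKM in ketogenic libraries and from 1.48 to 2.39 FPKM in chow libraries. Krt1 ran from 0.363 to 1.49 FPKM in ketogenic libraries and from 0.563 to 0.923 FPKM in chow libraries. These 4 overlapped between diets, and their part in the level of Alox12b was not tested. The list summed to 7.35 to 11.0 FPKM in ketogenic libraries and 8.45 to 13.2 FPKM in chow libraries. Nearest to Alox12b in profile were Cadps2, Ccl17 and Adam33, at mean absolute differences of 0.212, 0.213 and 0.214. Cadps2, a priming factor for dense-core vesicle release, measured 13.1, 12.4 and 9.11 FPKM on the ketogenic diet, against 3.36, 7.36 and 9.36 FPKM on chow. Its lowest library was chow replicate 1, which its choice by likeness to Alox12b favours.

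Alox12b lies between the lipoxygenases Aloxe3 and Alox8 on chromosome 11, and their highest libraries were other ones. Aloxe3, the hepoxilin synthase that works on the product of Alox12b in skin, measured 1.42, 1.15 and 3.48 FPKM on the ketogenic diet, against 0.811, 1.03 and 1.06 FPKM on chow. Its groups did not overlap, but the high library was ketogenic replicate 3, the ketogenic library lowest in Alox12b, and the log2 change was 0.67 ± 0.34 (SE; limma, adjusted p = 0.752). The 8-lipoxygenase Alox8 measured 1.61, 1.07 and 1.63 FPKM on the ketogenic diet, against 3.09, 1.23 and 2.15 FPKM on chow. It had a log2 change of -0.41 ± 0.29 (adjusted p = 0.752) and its highest level in chow replicate 1. No annotated gene overlaps Alox12b in GENCODE M21.

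Classical lipoxygenases were near the floor of the table. Alox5, the 5-lipoxygenase that starts leukotriene synthesis, measured 0.117, 0.114 and 0.170 FPKM on the ketogenic diet, against 0.241, 0.303 and 0.206 FPKM on chow. The ketogenic libraries were all below the chow libraries, but the gene was under the filter and was not tested. Alox12 averaged 0.118 FPKM in ketogenic libraries and 0.195 FPKM in chow libraries, and Alox15 averaged 0.0472 FPKM in ketogenic and 0.0402 FPKM in chow libraries.

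Alox5ap (ENSMUSG00000060063), the membrane protein FLAP that presents arachidonic acid to Alox5, measured 0.800, 1.24 and 0.936 FPKM in ketogenic replicates 1, 2 and 3, against 1.18, 0.971 and 0.893 FPKM in chow replicates 1, 2 and 3. The ranges overlapped almost entirely. Its log2 change was -0.03 ± 0.17 (SE; limma, adjusted p = 0.970), with a 95% interval from -0.44 to 0.38, and its sign turned under several settings. Alox5ap had 59 to 79 recovered reads in ketogenic libraries and 51 to 93 in chow libraries, and Gm19719 overlaps it on the opposite strand. Microglia are its usual source in brain. The libraries high in Alox5ap, ketogenic replicate 2 and chow replicate 1, had microglial deviations of 0.17 and -0.22. With the microglial score as a covariate the change was -0.04, and beyond that fit the part of microglia was not tested. Of 10 neutrophil and monocyte markers, 6 were under 0.5 FPKM in all libraries, and the list summed to 1.87 to 2.15 FPKM in ketogenic libraries and 0.299 to 11.8 FPKM in chow libraries. S100a9, a neutrophil calcium-binding protein, was highest in chow replicate 1, at 7.29 FPKM. Mast cell markers, 6 of 8 under 0.5 FPKM in all libraries, summed to 5.12 to 6.53 FPKM in ketogenic libraries and 2.68 to 5.58 FPKM in chow libraries. Most of that sum was Kit, which neurons also express, at 6.29, 4.99 and 6.01 FPKM in ketogenic replicates 1, 2 and 3 and 2.00, 5.22 and 4.59 FPKM in chow replicates 1, 2 and 3. The receptor gene Fcer1a was listed at 0 in all 6 libraries.

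In leukotriene synthesis after Alox5, each log2 change was smaller than its standard error. All 5 genes above the filter had positive log2 changes, with a median of 0.06. Lta4h, which makes leukotriene B4, measured 7.16 ± 1.03 FPKM in ketogenic libraries and 7.06 ± 0.432 FPKM in chow libraries (SD, n = 3 each). Ltc4s, which makes the cysteinyl leukotriene C4, measured 1.10 ± 0.380 FPKM in ketogenic and 1.03 ± 0.346 FPKM in chow libraries. The 5-lipoxygenase-binding protein Cotl1 and the leukotriene-cleaving Ggt1 had log2 changes of 0.10 ± 0.14 and 0.06 ± 0.17.

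Of 10 receptors of leukotrienes and other lipid mediators, 3 were above the filter, none with a positive change. Gpr17, which marks oligodendrocyte precursors and has been proposed as a leukotriene receptor, measured 9.02, 8.99 and 10.7 FPKM on the ketogenic diet, against 14.8, 11.5 and 10.5 FPKM on chow. Gpr37, a receptor of myelinating oligodendrocytes, measured 8.19, 5.68 and 11.0 FPKM on the ketogenic diet, against 23.2, 9.58 and 11.3 FPKM on chow. Both were highest in chow replicate 1, where oligodendrocyte markers were highest at 1.03, and their part was not tested. The log2 changes were -0.33 ± 0.15 and -0.73 ± 0.37 (SE; limma, adjusted p = 0.752 for each). That of the remaining tested gene of the list was -0.0006 ± 0.17.

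**Figure D3:**
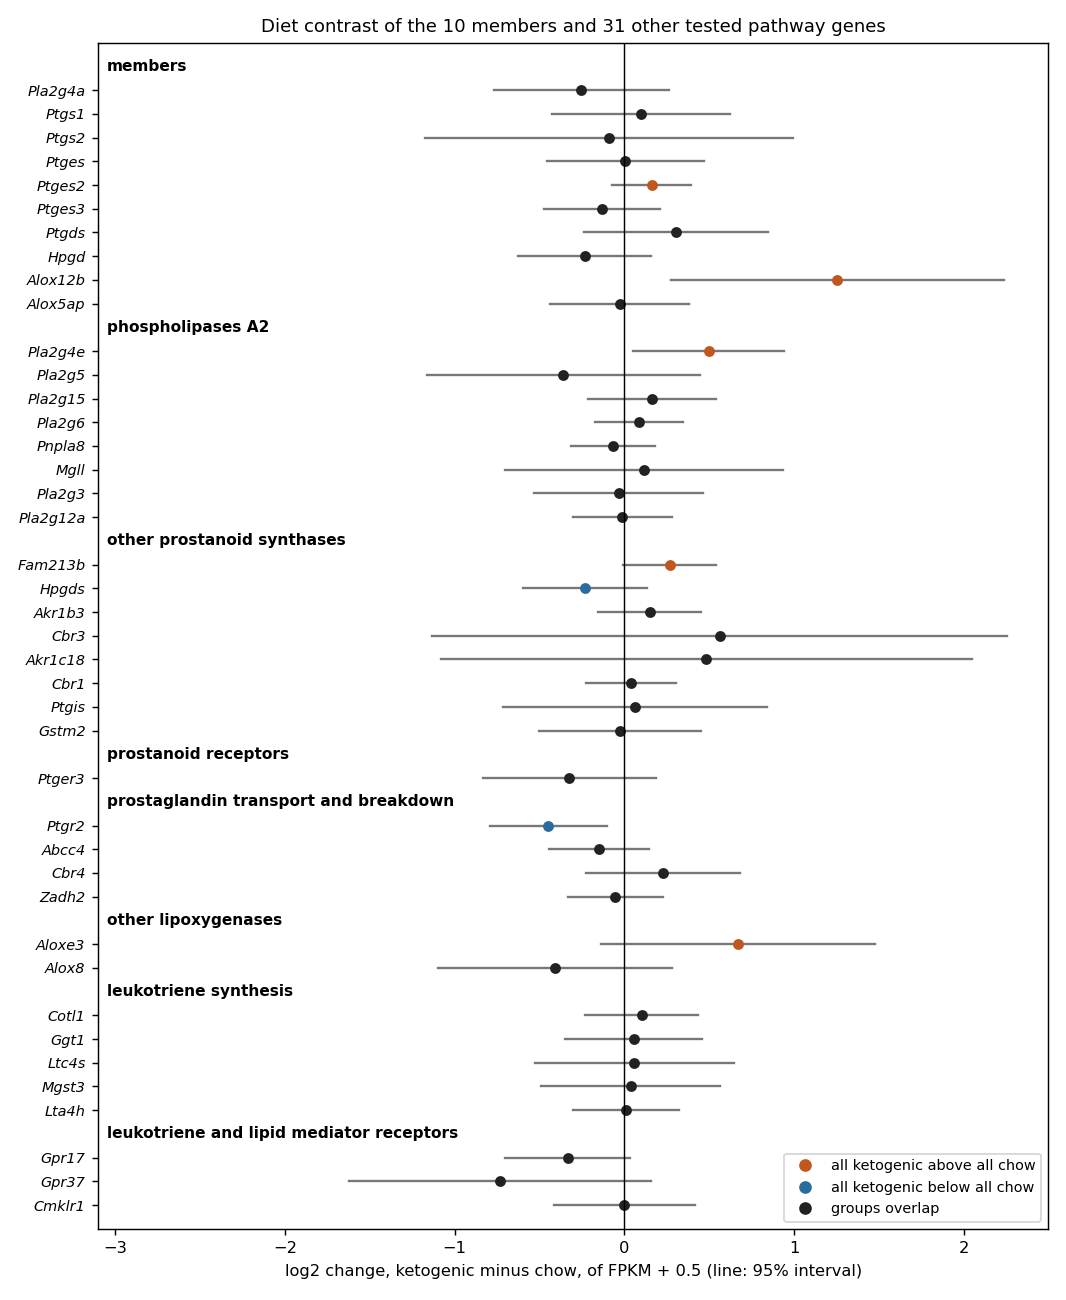
Log2 change, ketogenic minus chow, of log2(FPKM + 0.5) (x axis) for the 10 members and the 31 other pathway genes above the filter, grouped by role, with 95% intervals. Orange and blue points mark genes whose groups did not overlap, and Alox12b at 1.25 lies farthest from 0.

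Over all roles, 69 other pathway genes were in the table and 38 of them lay under the filter. Of the 31 tested, 17 had a positive and 14 a negative change, none was called, and the groups did not overlap in 3 higher genes (Pla2g4e, Fam213b, Aloxe3) and 2 lower genes (Hpgds, Ptgr2). Among all genes tested, 4.90% were higher and 7.49% lower without overlap. Counts of 3 and 2 among 31 genes are small, and whether they differ from these shares was not tested. The median was 0.04, against -0.04 for all genes tested.

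**Figure D4:**
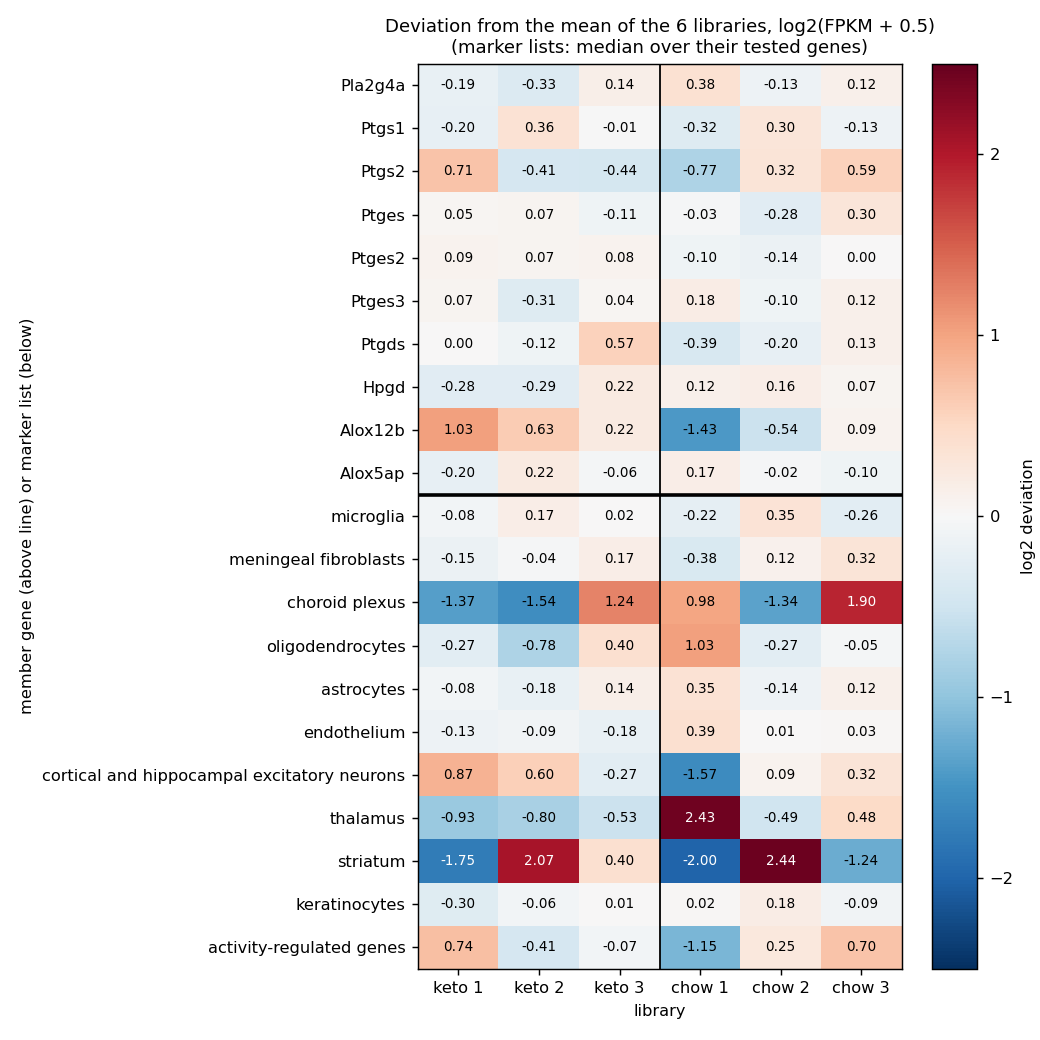
Deviation from the mean of the 6 libraries on the log2(FPKM + 0.5) scale (colour and printed number) for the 10 members (rows above the line) and marker lists with at least 4 tested genes (rows below, median over genes), by library (columns, ketogenic left). Chow replicate 1 stands out, with thalamic markers at 2.43, excitatory neuron markers at -1.57 and Alox12b at -1.43.

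Under 21 alternative settings, 183 of 207 member values kept the sign of their main value and 24 did not, and none was called. The 24 belonged to Ptgs1, Ptgs2, Ptges, Ptges3, Pla2g4a and Alox5ap, whose main changes lay between -0.25 and 0.10. Ptges2, Ptgds, Hpgd and Alox12b kept their sign throughout, Ptgds between 0.10 and 0.46, Hpgd between -0.40 and -0.13 and Alox12b between 0.62 and 1.76. Keeping a sign is not a call, since the adjusted p of Alox12b ran from 0.430 to 1.00 over these settings.

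**Figure D5:**
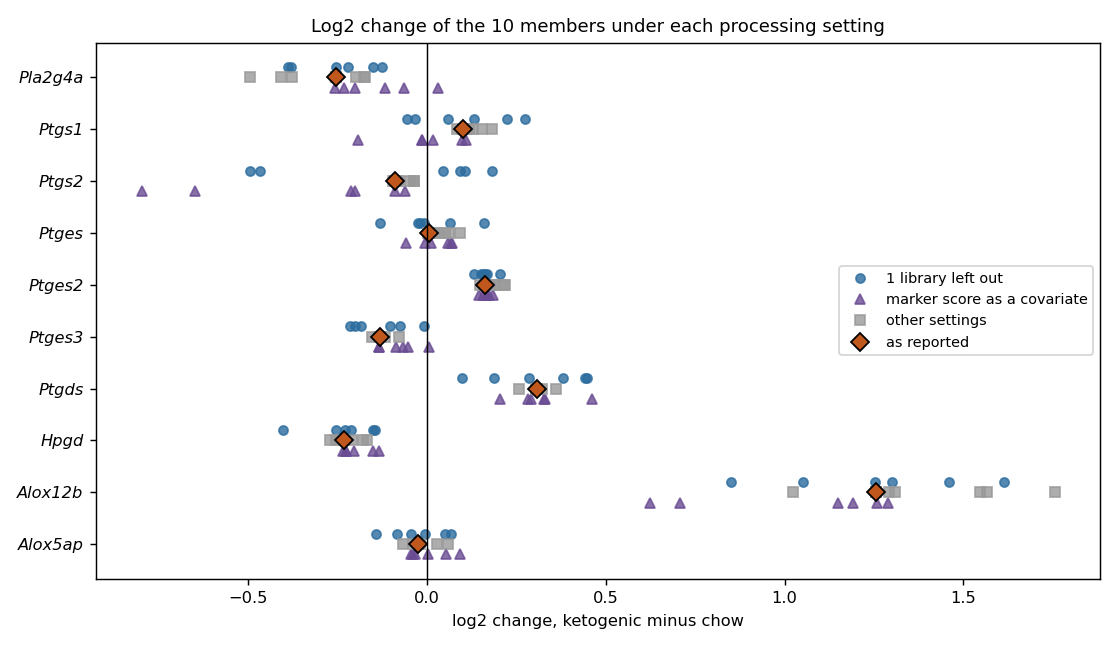
Log2 change, ketogenic minus chow, of each member (x axis) as reported (diamonds), with 1 library left out (circles), with a marker score as a covariate (triangles) and under other settings (squares). The points of Alox12b lie between 0.62 and 1.76, those of Ptges2 between 0.13 and 0.22, and those of Pla2g4a, Ptgs1, Ptgs2, Ptges, Ptges3 and Alox5ap lie on both sides of 0.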

How the data were processed

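Temporal lobe RNA from 6 kainic acid-treated mice, 3 on a ketogenic diet and 3 on chow, was sequenced as paired-end poly(A) libraries, per the labels' protocols. The authors deposited 1 table of FPKM values for 36079 Ensembl genes. HISAT2, featureCounts and Subread, and build GRCm39, are named in the submitters' processing notes. Handling of multimapped reads, strand and the FPKM denominator are not stated in the sources used here. No column of the table lacked a sample. Symbols came from a GENCODE M21 table, which named 35175 genes.

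The test between diets was limma's (version 3.58.1, R 4.3.3) on log2(FPKM + 0.5) of the 16009 genes averaging 0.5 FPKM or more, with a mean-variance trend, no covariate and Benjamini-Hochberg adjustment at 0.05. The pseudocount of 0.5 understates changes of low genes. FPKM steps gave whole reads, within 0.001, for 33856 of 33862 genes above 0. These are the smallest whole numbers that fit, with a median of 920 per tested gene and library, and can be too low by a factor shared by the libraries of a gene. They were tested with voom as an alternative. No pair of libraries agreed within sampling noise. Scripts were tested on simulated data. Deviations are from the mean of the 6 libraries on the log2(FPKM + 0.5) scale.

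The members, pathway lists, marker lists and tests were chosen with earlier results of these data known. Named were all members, the 2 other genes of each list with the smallest unadjusted p, a set of well-known pathway genes, and the 3 genes nearest in profile to Ptgs2, Ptgds, Alox12b and Alox5ap among those with at least 1 FPKM. Dusp6 and Cadps2 are given by library among the nearest genes, and Slc17a7, Egr1, Ttr, Krt1, Krt5, Krt10, Lor, Sbsn, Flg, Kit, S100a9 and Fcer1a from the marker lists, chosen after their values were seen. Promoters are RefSeq's, on GRCm38.p6.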

Additional observations from a re-analysis of the deposited data

How the results depend on the processing

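No gene was called under any of the 21 alternatives. The number of genes with an unadjusted p under 0.05, 861 as reported, was 1566 with no filter, 466 with a thalamic score as covariate and 467 with the choroid plexus score, and ran from 523 to 1845 when 1 library was left out, the highest without chow replicate 2 and the lowest without ketogenic replicate 2. It was 542 without chow replicate 1. The cause was not tested, except that no filter tests more genes. Equal replicate numbers did not mark pairs throughout, with correlations of deviations of -0.04, 0.48 and -0.21 between same-numbered libraries. Ketogenic replicate 1 correlated most with chow replicate 3, at 0.45, and ketogenic replicate 3 with chow replicate 1, at 0.31. No fit paired libraries by these correlations. With the replicate number as a block, 982 genes had an unadjusted p under 0.05, no gene was called, and that of Alox12b was 0.0487. The sign of Alox5ap, -0.03 as reported, turned with quantile normalization (0.060), median centring (0.027), and the thalamic (0.092), activity-regulated (0.0020) and excitatory neuron (0.054) scores, and the change ran from -0.14 to 0.067 with 1 library left out. Pla2g4a turned to 0.030 and Ptges3 to 0.0043 with the thalamic score, and with 1 library left out they ran from -0.39 to -0.13 and from -0.22 to -0.0083. Ptgs1 turned to -0.19 with the thalamic, -0.015 with the choroid plexus and -0.016 with the excitatory neuron score, and ran from -0.057 to 0.27 with 1 library left out. Ptges turned to -0.0055 with the activity-regulated and -0.059 with the excitatory neuron score, and ran from -0.13 to 0.16. Ptgs2 ran from -0.50 to 0.18 with 1 library left out. Fits that leave out a library rest on 2 samples in 1 group. The meningeal, activity-regulated, excitatory neuron and microglial scores were added after seeing the data. Depth may limit single libraries where few reads were recovered, as for Alox5ap (51 to 93) and Alox12b in chow replicate 1 (59). These numbers, too, can be too low by a factor shared by the libraries of a gene. With a filter of 2 FPKM, Pla2g4a, Ptges and Alox5ap were not tested.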

Other observations

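Around the Alox12b cluster on chromosome 11, the clock gene Per1, which is also activity-regulated, measured 23.4, 20.4 and 19.2 FPKM in ketogenic replicates 1, 2 and 3, against 13.7, 18.8 and 20.6 FPKM in chow replicates 1, 2 and 3. Chow replicate 1 was its lowest library, as for Alox12b, and the groups overlapped. On the far side, Cntrob, a centriolar protein gene, measured 3.94, 3.08 and 3.37 FPKM on the ketogenic diet, against 3.39, 3.70 and 4.45 FPKM on chow, and the groups overlapped.

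Ccl17, a chemokine that draws T cells and is made by some hippocampal neurons in mice, was among the genes nearest to Alox12b in profile. It measured 2.45, 2.03 and 1.31 FPKM on the ketogenic diet, against 0.279, 0.755 and 0.725 FPKM on chow. The groups did not overlap, which its choice by likeness to Alox12b favours. Of all genes tested, 4.90% were higher without overlap. Slit2, an axon guidance cue and the gene nearest to Ptgds, measured 1.90, 1.47 and 2.47 FPKM on the ketogenic diet, against 1.29, 1.48 and 1.92 FPKM on chow. Smdt1, a regulator of the mitochondrial calcium uniporter and the gene nearest to Alox5ap, measured 21.4, 29.0 and 24.4 FPKM on the ketogenic diet, against 28.3, 23.9 and 21.8 FPKM on chow.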
